A study of Mus musculus with 6 samples.

Results

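The genes described here encode amino acid and neurotransmitter transporters of the plasma membrane and the lysosome. They were chosen by symbol, as every row of the deposited UMI count table whose name starts with Slc1a, Slc3a, Slc6a, Slc7a, Slc36a, Slc38a or Slc43a followed by a digit. The rule returned 53 of the 15643 genes in the table, and no measured value entered it. One of the 53, Slc7a6os, carries a matching symbol but is named only for its place beside Slc7a6 and is not a transporter. Genes of these families outside the table, such as Slc1a1, Slc6a2, Slc6a5 and Slc7a9, were not analysed here.

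RNA came from sorted mTEChi, the mature epithelial cells of the thymic medulla, taken at 4.5 weeks of age from NOD mice, a strain that develops autoimmune diabetes. Libraries 745, 750 and 753 were labelled Aire+/+, and libraries 746, 748 and 749 were labelled Aire-/-. MARS-seq reads the 3′ end of a transcript and counts molecules by an attached identifier (UMI). Aire is a nuclear protein through which these cells transcribe many genes otherwise restricted to single tissues, and the comparison asks which transcripts differ when it is missing.

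Amino acid transporters carry substrates across membranes either by coupling to sodium, proton or chloride gradients or by exchanging one amino acid for another. The Slc7 light chains reach the membrane bound to an Slc3 heavy chain, and the Slc6 family also clears GABA, glycine, dopamine and serotonin from synapses. Many family members have a tissue of their own, such as kidney and gut epithelium, liver, brain or retina, whereas others feed nearly every growing cell.

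The Aire+/+ libraries held 2736932 to 2887321 UMIs and the Aire-/- libraries 1014581 to 1960802, with library 746 the shallowest. A count of 0, which allows up to 3 UMIs, set a limit of 0.984 to 1.01 CPM (UMIs scaled to a common, TMM-adjusted library size) in Aire+/+ libraries and 1.61 to 3.08 CPM in Aire-/- libraries. These limits, and the fold bounds against 3 UMIs given below, cover counting error only. The labels do not say whether the libraries of a genotype came from separate animals, so p-values measure the spread between libraries, which may be technical. Aire itself was higher in the libraries labelled Aire-/- (4827 ± 333 CPM, SD, n = 3) than in those labelled Aire+/+ (2250 ± 192 CPM, SD, n = 3). Which part of Aire was removed is not in the labels, so its 3′ counts do not check the genotype, and every direction below rests on the labels. All 10 markers of mature medullary epithelium were present; Aire, Cd80, Cd86 and H2-Aa rose, the other 6, Epcam among them, were not called, and the list summed to 15700 to 18700 CPM in the Aire+/+ and 25800 to 29200 CPM in the Aire-/- libraries. Fibroblast markers (Col3a1, Dcn and Col1a1 in the table) summed to 37.3 to 65.6 CPM in Aire+/+ libraries and 123 to 502 CPM in Aire-/- libraries, the cortical epithelial list to 366 to 557 and 782 to 916 CPM, the list of dendritic cells and macrophages (Cd68 rose, Itgam fell) to 1230 to 1340 and 1470 to 2410 CPM, and Ptprc, which marks all leukocytes, to 16.5 to 31.8 and 10.3 to 36.7 CPM. In the fibroblast sum Col3a1 was at 195, 37.1 and 8.56 CPM in libraries 746, 748 and 749, against 5.71 to 14.1 CPM in Aire+/+ libraries. Dcn was at 302, 83.9 and 114 CPM there, against 26.4 to 48.2 CPM. Lyz2, not called, made up most of the dendritic cell and macrophage sum and was highest in library 749 (2121 CPM). The part of any of these cell types in the differences below was not tested. Gapdh, at 90 UMIs in library 753 and 28 in library 746 against 2245 to 4166 in the others, set these libraries apart in both genotypes, and results were recomputed without the pair.

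Sequence immediately upstream of the transcription start is shown for some of the called members. The first pair are neighbours on chromosome 6 that fell together, the next pair rose, and the last holds 2 matches to a stress-response motif. Sequences are the 250 bases before the start in RefSeq annotation of GRCm38.p6, written 5′ to 3′ on the gene's strand. In the first 4 sequences capitals mark CpG dinucleotides, the sites of DNA methylation in mammals.
Slc6a12 chr6:121342826-121343075, + strand: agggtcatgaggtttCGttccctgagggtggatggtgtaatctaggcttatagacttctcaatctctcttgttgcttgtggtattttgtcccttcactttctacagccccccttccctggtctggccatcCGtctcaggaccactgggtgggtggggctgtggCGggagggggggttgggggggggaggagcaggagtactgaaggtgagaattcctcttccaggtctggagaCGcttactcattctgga
Slc6a13 chr6:121300038-121300287, + strand: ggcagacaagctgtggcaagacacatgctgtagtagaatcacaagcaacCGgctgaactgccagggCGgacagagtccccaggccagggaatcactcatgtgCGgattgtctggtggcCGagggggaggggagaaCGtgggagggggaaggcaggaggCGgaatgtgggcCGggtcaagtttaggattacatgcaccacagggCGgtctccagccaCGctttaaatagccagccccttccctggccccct
Slc36a1 chr11:55204090-55204339, + strand: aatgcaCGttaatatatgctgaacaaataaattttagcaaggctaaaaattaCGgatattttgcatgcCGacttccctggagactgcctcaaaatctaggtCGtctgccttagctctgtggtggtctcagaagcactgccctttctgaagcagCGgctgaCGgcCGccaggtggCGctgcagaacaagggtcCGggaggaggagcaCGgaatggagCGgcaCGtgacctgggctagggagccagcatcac
Slc7a10 chr7:35186135-35186384, + strand: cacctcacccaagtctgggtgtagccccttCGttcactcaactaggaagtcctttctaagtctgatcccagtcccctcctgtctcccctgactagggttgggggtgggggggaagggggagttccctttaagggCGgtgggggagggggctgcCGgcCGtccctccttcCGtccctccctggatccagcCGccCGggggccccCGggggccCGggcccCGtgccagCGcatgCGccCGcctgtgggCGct
In the fifth sequence capitals mark the motif TGATGNAA on either strand, the core of the element bound by ATF4, a transcription factor of the amino acid response.
Slc7a11 chr3:50443614-50443863, - strand: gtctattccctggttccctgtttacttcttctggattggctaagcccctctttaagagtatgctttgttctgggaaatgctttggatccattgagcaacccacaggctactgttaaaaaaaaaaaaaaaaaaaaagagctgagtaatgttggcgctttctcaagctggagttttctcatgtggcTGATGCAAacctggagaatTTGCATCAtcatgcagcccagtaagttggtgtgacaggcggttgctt
The windows of Slc6a12, Slc6a13, Slc36a1 and Slc7a10 held 4, 9, 12 and 14 CpGs, against a median of 6 (range 0 to 56) over 32851 RefSeq promoter windows of that length. Slc6a12 and Slc6a13 had several RefSeq starts, of which the one nearest the gene start in GENCODE annotation was used. Counted with the 50 bases after each start, the Slc6a13 windows held 11 (shown), 7 and 2 CpGs. Those of Slc6a12 held 2, 2, 5 (shown), 5 and 3. In the Slc7a11 window TGATGCAA was separated from the start by 58 bases and TTGCATCA, the motif on the opposite strand, by 39. TGATGNAA occurred in 3.45% of all promoter windows and in 4 of 58 windows of transporter genes (6.90%), which represent 39 of the 53 symbols. TATAAA, searched on both strands, occurred in 12.4% of all windows and in 6 of the 58 (10.3%). A match describes letters only, and 3′ counts do not show which start was used.

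Of the 53 genes, 36 passed the filter on low counts and were tested with edgeR's quasi-likelihood test across 11956 genes, with Benjamini-Hochberg adjustment over all of them and a threshold of 0.05. In the Aire-/- libraries 8 were lower (22.2% of those tested, against 12.1% of all tested genes) and 5 were higher (13.9%, against 8.59%). The 8 were Slc6a12, Slc6a13, Slc6a8, Slc6a19, Slc7a11, Slc7a3, Slc36a2 and Slc38a3, and the 5 were Slc1a2, Slc6a7, Slc7a2, Slc7a10 and Slc36a1. The other 23 were not called, among them Slc1a3, Slc3a2, Slc43a1, Slc43a2, Slc43a3 and Slc7a8 with unadjusted edgeR p below 0.05. Scaled by library totals instead, 2048 of all genes were lower and 567 higher, against 1450 and 1027 with TMM scaling, and 3 transporters were higher. The median log2 fold change (Aire-/- over Aire+/+) was -0.06 over the 36 and -0.02 over all tested genes, and the former ranged from -0.25 with library totals to 0.09 without library 750. In these sorted populations, fewer cells expressing a gene and less RNA per cell cannot be told apart. Over all 53 genes, 18 were higher in every Aire+/+ library than in any Aire-/- library (34.0%, against 24.5% of the table), 9 the other way round (17%, against 13.2%), and 26 overlapped. Over the whole table, 37.7% of genes did not overlap. Without libraries 753 and 746 together, Slc6a12, Slc6a13, Slc6a8, Slc6a7, Slc7a2 and Slc36a1 were still called, whereas Slc1a2, Slc36a2, Slc38a3, Slc6a19, Slc7a10, Slc7a11 and Slc7a3 were not (edgeR adjusted p 0.0605 to 0.255). The authors' deposited table selects 8 of these genes, with Slc6a12, Slc6a13, Slc6a3 and Slc38a3 higher in Aire+/+ (7.14% of all genes are so selected) and Slc1a2, Slc6a7, Slc7a2 and Slc36a1 higher in Aire-/- (2.28%).

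**Figure D1:**
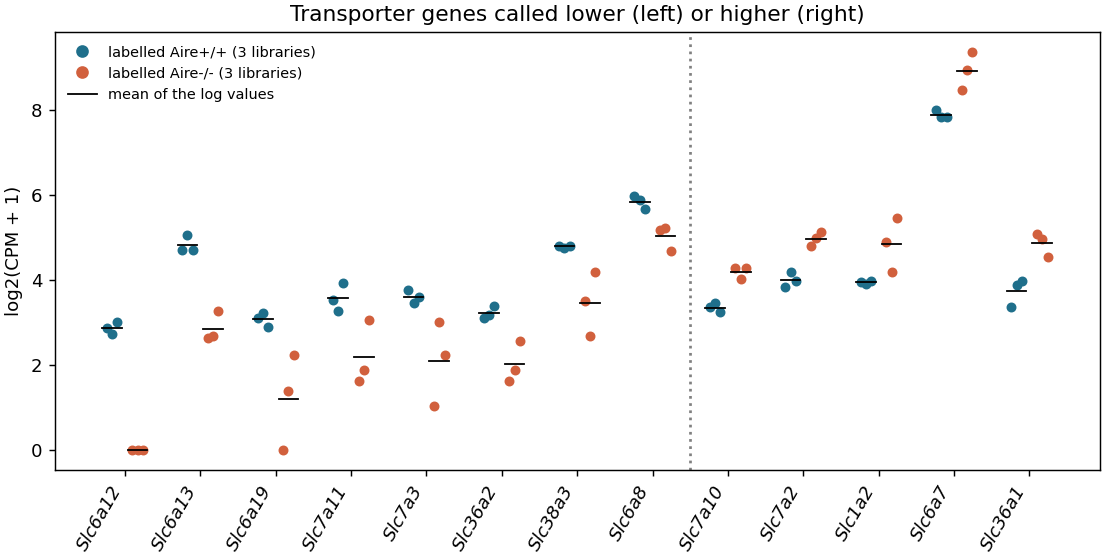
Levels of the 13 called transporter genes in each library, as log2(CPM + 1) on the vertical axis, with each point a library and each line the mean of 3. The 8 genes at the left stood lower in all 3 Aire-/- libraries and the 5 at the right higher. Slc6a12 had 0 UMIs in every Aire-/- library.

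Among the tested transporters, the deepest losses were those of Slc6a12 and Slc6a13, of the group that carries GABA, betaine, taurine and creatine. The smallest of the 8 falls, that of Slc6a8, was in the same group. The group had 6 genes in the table. Of these 4 were tested, 3 fell and Slc6a6 was not called, with a median log2 fold change of -1.45.
Slc6a12 encodes the betaine and GABA transporter, which takes up betaine as an osmolyte in the kidney. It had 19, 17 and 21 UMIs in Aire+/+ libraries (6.30 ± 0.72 CPM, SD, n = 3) and 0, 0 and 0 in Aire-/- libraries. Against a floor of 3 UMIs over the Aire-/- group it was at least 9.38-fold lower, with edgeR adjusted p = 0.000525. It passed the count filter through the Aire+/+ libraries alone, so only a lower call was possible.
Slc6a13, a GABA and taurine transporter of liver, kidney and meninges, gave 24.9, 32.4 and 24.8 CPM in Aire+/+ libraries and 5.13, 5.38 and 8.56 CPM in Aire-/- libraries. The groups were far apart, with the lowest Aire+/+ library above the highest Aire-/- library. The log2 fold change was -2.07 (SE 0.28, edgeR adjusted p = 0.000179).
Slc6a12 (chromosome 6, 121343076 to 121365775, plus strand) and Slc6a13 (chromosome 6, 121300227 to 121337733, plus strand) lie 5.3 kb apart in mm10 by GENCODE annotation. Slc6a11, a GABA transporter of glia, had 6, 5 and 4 UMIs in Aire+/+ libraries and 0 in every Aire-/- library, and did not pass the count filter.
Slc6a8, the creatine transporter on chromosome X, was at 61.7, 57.5 and 49.7 CPM in Aire+/+ libraries. In the Aire-/- libraries it was at 34.9, 36.0 and 24.5 CPM, without overlap. It fell by 0.83 on the log2 scale (SE 0.19, edgeR adjusted p = 0.00616). Slc6a6, the taurine transporter, ranged from 38.6 to 69.4 CPM in Aire+/+ libraries and from 56.2 to 77.0 CPM in Aire-/- libraries, with overlap (log2 fold change 0.42, edgeR adjusted p = 0.223). Without library 750, the highest Aire+/+ library for Slc6a6, it passed the threshold as higher.

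The monoamine transporters were at very different levels. Slc6a4, which takes serotonin back into cells, was at 73.8, 84.6 and 96.7 CPM in Aire+/+ libraries and 97.5, 81.8 and 96.6 CPM in Aire-/- libraries, and these overlapped (log2 fold change 0.11, edgeR adjusted p = 0.679; -0.09 with library totals). Slc6a3, the dopamine transporter, had 15, 12 and 23 UMIs in Aire+/+ libraries and none in Aire-/- libraries. Against 3 UMIs over the group this is at least 8.23-fold lower. It missed the count filter, and the authors' deposited table gives a log2 fold change of 5.42 for Aire+/+ over Aire-/- with adjusted p = 0.00106. Slc6a9, the glial glycine transporter, was at 16.7, 19.5 and 17.8 CPM in Aire+/+ libraries and 21.6, 8.61 and 9.78 CPM in Aire-/- libraries. Library 746 was the highest of the 6 for Slc6a9 and libraries 748 and 749 the lowest, and it was not called (log2 fold change -0.55, edgeR adjusted p = 0.267). Without library 746 it was called lower (log2 fold change -0.97, edgeR adjusted p = 0.0251).

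Among the other Slc6 genes 1 fell and 1 rose. Slc6a7 encodes the high-affinity proline transporter known from brain synapses and lies on chromosome 18. It was at 254, 224 and 227 CPM in Aire+/+ libraries and 349, 488 and 652 CPM in Aire-/- libraries, the second most counted transporter gene in Aire+/+ libraries after Slc3a2 and the first in the pooled Aire-/- counts. Every Aire-/- library was above every Aire+/+ library, and the Aire-/- libraries differed widely among themselves. The log2 fold change was 1.08 (SE 0.19, edgeR adjusted p = 0.00114), or 2.12-fold higher. Cdx1, an intestinal transcription factor gene lying 4.6 kb away on the same strand, rose with a log2 fold change of 0.85 (SE 0.13, edgeR adjusted p = 0.000474).
Slc6a19 takes up neutral amino acids at the brush border of gut and kidney. It gave 23, 25 and 19 UMIs in Aire+/+ libraries and 0, 3 and 6 in Aire-/- libraries. All Aire-/- libraries were lower, with a log2 fold change of -1.86 (SE 0.53, edgeR adjusted p = 0.0239). Like Slc6a12, Slc6a19 passed the count filter through the Aire+/+ libraries alone, so only a lower call was possible. The edgeR adjusted p was 0.0714 without library 745, 0.0691 without library 750 and 0.106 without library 748, and the log2 fold change was -2.76 without library 749. Its partner gene Cltrn (collectrin), which brings the protein to the kidney surface, was below the count filter, with 9, 10 and 7 UMIs in Aire+/+ libraries and 0 in each Aire-/- library. Of 6 tested enterocyte markers, Fabp1, Fabp2 and Apoa4 fell, Cdx1 rose, and Vil1 and Hnf4g were not called. Hnf4a, below the count filter, had 36 UMIs over the Aire+/+ libraries and 0 over the Aire-/- libraries. The summed level of the list ran from 673 to 779 CPM in Aire+/+ libraries and from 873 to 895 CPM in Aire-/- libraries. In that sum Cdx1 ran from 349 to 426 and from 666 to 739 CPM, and Apoa4 from 253 to 333 and from 106 to 204 CPM. The part of enterocyte-like cells in the Slc6a19 result was not tested.
Slc6a14, a broad neutral and cationic amino acid transporter, was at 5.58, 1.98 and 4.70 CPM in Aire+/+ libraries and 5.13, 2.15 and 4.28 CPM in Aire-/- libraries, and was not called (edgeR adjusted p = 0.855). Slc6a15, a branched-chain amino acid transporter of brain, had 14, 5 and 13 UMIs in Aire+/+ libraries and 0 in Aire-/- libraries. Slc6a17, a vesicular transporter of neurons, was at 6.56, 2.64 and 4.70 CPM in Aire+/+ libraries and 2.05, 0.538 and 3.67 CPM in Aire-/- libraries, with overlap. Slc6a16, Slc6a20b and Slc6a21 also overlapped, with at most 3.36 CPM in any library.

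The glutamate and neutral amino acid transporters of the Slc1 family included 1 gene that rose. Slc1a2, the main glutamate transporter of astrocytes, was at 14.4, 13.9 and 14.8 CPM in Aire+/+ libraries and 28.8, 17.2 and 42.8 CPM in Aire-/- libraries. The Aire+/+ libraries were tight and the Aire-/- libraries spread widely, without overlap between the groups. Its log2 fold change was 1.03 (SE 0.29, edgeR adjusted p = 0.0242), and without library 749 it was 0.61 with edgeR adjusted p = 0.14. Leaving out library 745, 750 or 753 also ended the call, with edgeR adjusted p of 0.0764, 0.0756 and 0.0706, as did scaling by library totals (0.054) and thinning to equal depth (0.0651).
Slc1a3, the related transporter of Bergmann and Müller glia, was the most abundant of the family at 71.8, 112 and 99.0 CPM in Aire+/+ libraries and 136, 129 and 109 CPM in Aire-/- libraries. The groups overlapped, and it was not called (log2 fold change 0.39, edgeR adjusted p = 0.137). Slc1a4, an exchanger of alanine, serine and cysteine, was at 9.84, 17.2 and 16.8 CPM in Aire+/+ libraries and 20.5, 14.5 and 9.17 CPM in Aire-/- libraries. Slc1a5, which also exchanges glutamine, was at 12.1, 17.2 and 14.4 CPM and at 20.5, 13.5 and 11.6 CPM. Both overlapped between genotypes and neither was called (edgeR adjusted p 0.948 and 0.994). The neuronal and retinal genes Slc1a6 and Slc1a7 were below the count filter, with 8 and 0 UMIs for Slc1a6 and 15 and 6 for Slc1a7 summed over the Aire+/+ and Aire-/- libraries.

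The heavy chain Slc3a2, which carries the light chains of system L and the cystine exchanger to the surface, was the most counted transporter gene in Aire+/+ libraries at 261, 335 and 320 CPM. In the Aire-/- libraries it was at 447, 355 and 371 CPM, above every Aire+/+ library, and missed the threshold (log2 fold change 0.35, SE 0.14, edgeR adjusted p = 0.108). Slc3a1, the heavy chain of kidney cystine transport, was at 2.62, 2.31 and 1.68 CPM in Aire+/+ libraries and 4.11, 1.61 and 3.06 CPM in Aire-/- libraries, with overlap and no test.
Of 7 light-chain genes 6 were tested, 1 fell and 1 rose. Slc7a11 imports cystine in exchange for glutamate and supplies glutathione synthesis. It was at 10.5, 8.59 and 14.1 CPM in Aire+/+ libraries and 2.05, 2.69 and 7.34 CPM in Aire-/- libraries. All Aire-/- libraries lay below, with a log2 fold change of -1.38 (SE 0.43, edgeR adjusted p = 0.0398). The call was lost with DESeq2 (adjusted p = 0.0596) and without library 745, 753, 746 or 748 (edgeR adjusted p 0.0856, 0.15, 0.0821 and 0.166). Without library 749 the log2 fold change was -2.14.
Slc7a10, an exchanger of small neutral amino acids including D-serine, went the other way, from 9.18, 9.91 and 8.39 CPM in Aire+/+ libraries to 18.5, 15.1 and 18.3 CPM in Aire-/- libraries. The log2 fold change was 0.90 (SE 0.26, edgeR adjusted p = 0.0271) with no overlap. DESeq2 did not call it (adjusted p = 0.0758), nor did edgeR without library 745, 750, 753 or 749 (adjusted p 0.0833, 0.0544, 0.103 and 0.06), with library totals (0.0823) or after thinning (0.251). Lrp3, not in the table, runs on the opposite strand into the 3′ end of Slc7a10, and the strand setting of the counting is not given in the sources used here.
Slc7a7, a light chain that exports cationic amino acids and is highly expressed in macrophages and kidney, was at 136, 112 and 118 CPM in Aire+/+ libraries and 91.4, 90.9 and 130 CPM in Aire-/- libraries. Slc7a5, which imports leucine and other large neutral amino acids, was at 33.5, 39.3 and 38.9 CPM in Aire+/+ libraries and 63.7, 50.6 and 28.7 CPM in Aire-/- libraries. Slc7a6, a relative of Slc7a7, was at 40.3, 38.3 and 41.3 CPM and at 26.7, 35.0 and 34.2 CPM. Of these 3 genes only Slc7a6 had groups that did not overlap, and none was called (edgeR adjusted p 0.395, 0.39 and 0.262). Without library 749, Slc7a5 was called higher (edgeR adjusted p = 0.0291). Slc7a8, which shares large neutral substrates with Slc7a5, was at 13.8, 22.5 and 17.5 CPM in Aire+/+ libraries and 34.9, 24.7 and 29.3 CPM in Aire-/- libraries. It stood just outside the threshold (log2 fold change 0.70, SE 0.24, edgeR adjusted p = 0.053) and was called with a count minimum of 3, with no filter or without library 750 (edgeR adjusted p 0.0441, 0.0409 and 0.0352). Slc7a15 had 24 and 12 UMIs summed over the Aire+/+ and Aire-/- libraries, and Slc7a6os, at 32.5, 31.1 and 32.6 CPM in Aire+/+ libraries and 40.04, 33.9 and 33.6 CPM in Aire-/- libraries, was not called (edgeR adjusted p = 0.607).

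The cationic amino acid transporters, which bring arginine, lysine and ornithine into cells, were all tested. Slc7a3, best known from brain, was at 12.5, 9.91 and 11.1 CPM in Aire+/+ libraries and 1.03, 6.99 and 3.67 CPM in Aire-/- libraries. The Aire-/- libraries were all lower but unequal, and the log2 fold change was -1.34 (SE 0.42, edgeR adjusted p = 0.0382). It was not called with DESeq2 (adjusted p = 0.0568) or by edgeR without library 745, 750, 753, 746 or 749 (adjusted p 0.117, 0.0638, 0.0931, 0.0726 and 0.0778). Without library 748 the log2 fold change was -2.05.
Slc7a2, the inducible arginine transporter of macrophages and liver, was at 13.1, 17.2 and 14.8 CPM in Aire+/+ libraries and 26.7, 30.7 and 33.6 CPM in Aire-/- libraries. Each Aire-/- library exceeded every Aire+/+ library, and the log2 fold change was 1.03 (SE 0.21, edgeR adjusted p = 0.00326), or 2.04-fold higher. Stretches of at least 80 nt within the last 300 nt of 2 Slc7a2 transcripts match 169 other genes or more, at 90.2% identity or more. The search kept a limited number of matches per transcript. The Slc7a2 counts are therefore uncertain where reads matched several genes. Slc7a1, the widespread arginine transporter, was at 22.6, 22.5 and 28.9 CPM in Aire+/+ libraries and 21.6, 22.6 and 25.7 CPM in Aire-/- libraries and was not called (edgeR adjusted p = 0.847). Slc7a4, a related protein without clear transport activity, was at 15.4, 19.5 and 12.8 CPM in Aire+/+ libraries and 16.4, 6.99 and 7.95 CPM in Aire-/- libraries, and was not called (edgeR adjusted p = 0.175). Without library 746 it was called lower (edgeR adjusted p = 0.0309).

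The proton-coupled transporters of the Slc36 family moved in opposite directions. Slc36a1, a transporter of small amino acids in lysosomes and gut, was at 9.18, 13.6 and 14.8 CPM in Aire+/+ libraries and 32.9, 30.1 and 22.0 CPM in Aire-/- libraries. All Aire-/- libraries were higher, with a log2 fold change of 1.16 (SE 0.25, edgeR adjusted p = 0.00524). Slc36a2, a glycine and proline transporter of kidney, was at 7.54, 7.93 and 9.40 CPM in Aire+/+ libraries and 2.05, 2.69 and 4.89 CPM in Aire-/- libraries. All Aire-/- libraries were lower, with a log2 fold change of -1.30 (SE 0.40, edgeR adjusted p = 0.0337).
The genes are neighbours on chromosome 11, Slc36a2 at 55158470 to 55185077 on the minus strand and Slc36a1 at 55204350 to 55236330 on the plus strand, 19.3 kb apart. The last 300 nt of 1 Slc36a1 transcript match Slc36a2 over 209 nt at 95.7% identity, so the counts of both are uncertain where reads matched both. The Slc36a2 call was lost with DESeq2 (adjusted p = 0.116) and without library 745, 750, 753, 746 or 748 (edgeR adjusted p 0.0708, 0.0671, 0.118, 0.0845 and 0.143). Slc36a4, the third gene of the family in the table, was at 2.30, 1.32 and 4.03 CPM in Aire+/+ libraries and 2.05, 2.15 and 1.22 CPM in Aire-/- libraries, with overlap and no test.

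The sodium-coupled neutral transporters of the Slc38 family, which carry glutamine, alanine and related amino acids, had 10 genes in the table and 6 tested. Slc38a3, the glutamine transporter of liver, kidney and astrocytes, was the one that fell. It was at 26.9, 25.8 and 26.9 CPM in Aire+/+ libraries and 10.3, 5.38 and 17.1 CPM in Aire-/- libraries. The Aire+/+ libraries lay close together and above all Aire-/- libraries, and the log2 fold change was -1.29 (SE 0.31, edgeR adjusted p = 0.0103). It was -0.88 without library 748 and -1.88 without library 749.
Slc38a10 and Slc38a2, the latter induced by amino acid shortage in many cells, were the most counted of the family. Slc38a10 was at 136, 143 and 121 CPM in Aire+/+ libraries and 162, 147 and 138 CPM in Aire-/- libraries, with overlap. Slc38a2 was at 79.7, 77.6 and 95.3 CPM in Aire+/+ libraries and 94.5, 88.2 and 117 CPM in Aire-/- libraries, also with overlap. Neither was called (edgeR adjusted p 0.462 and 0.308).
Slc38a6, at 23.3, 24.8 and 21.8 CPM in Aire+/+ libraries and 14.4, 18.8 and 26.9 CPM in Aire-/- libraries, was not called (edgeR adjusted p = 0.649). Slc38a1, a glutamine transporter of neurons and other cells, and Slc38a7, a lysosomal glutamine exporter, were not called either, with means of 18.0 and 12.6 CPM in Aire+/+ libraries and 20.4 and 8.85 CPM in Aire-/- libraries. The last 300 nt of Slc38a6 match 4 other genes at 91.4% to 98.7% identity. Slc38a5, a glutamine transporter, had 10, 8 and 24 UMIs in Aire+/+ libraries, and Slc38a8, known from retina and brain, had 13, 6 and 8, with 0 for both in every Aire-/- library. Slc38a4 had 21 and 4 UMIs and Slc38a9, the lysosomal arginine sensor, had 23 and 8, summed over the Aire+/+ and Aire-/- libraries.

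The Slc43 genes were all tested and none was called with TMM scaling. With library totals Slc43a1 (log2 fold change -1.07, edgeR adjusted p = 0.0274) and Slc43a2 (-0.77, edgeR adjusted p = 0.0341) were called lower. Slc43a1, a transporter of branched-chain amino acids, was at 14.1, 11.6 and 11.4 CPM in Aire+/+ libraries and 7.19, 5.38 and 7.95 CPM in Aire-/- libraries. The groups did not overlap, and the log2 fold change of -0.87 (SE 0.31) had an edgeR adjusted p of 0.0689. Slc43a2, with similar substrates, was at 32.8, 32.1 and 22.2 CPM in Aire+/+ libraries and 21.6, 19.9 and 17.7 CPM in Aire-/- libraries (log2 fold change -0.57, edgeR adjusted p = 0.0962). Slc43a3, a purine transporter, was at 31.2, 30.7 and 36.9 CPM and at 47.2, 38.2 and 44.6 CPM (log2 fold change 0.38, edgeR adjusted p = 0.148). Neither pair of groups overlapped, with Slc43a2 higher in Aire+/+ libraries and Slc43a3 higher in Aire-/- libraries.

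**Figure D2:**
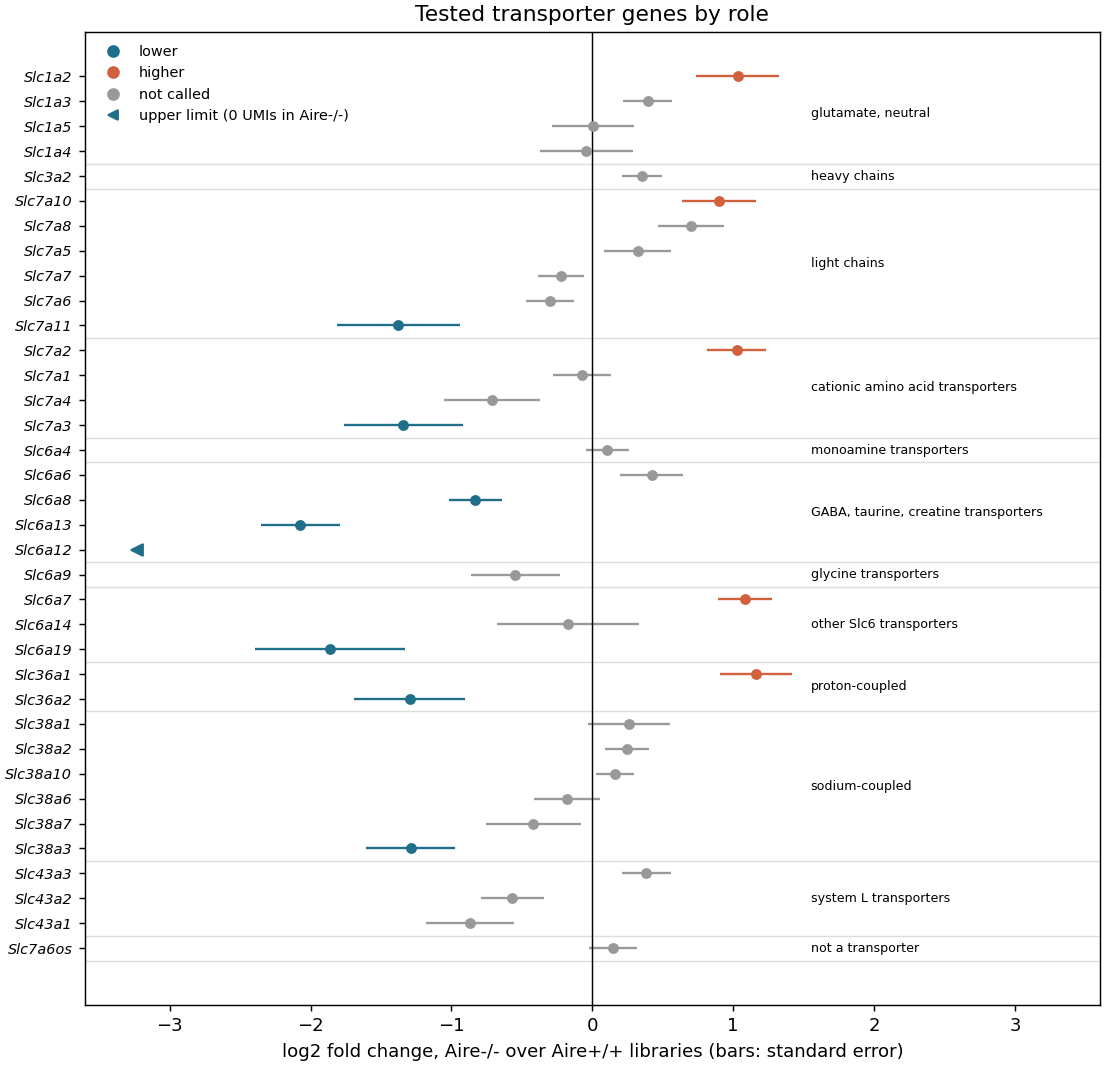
Log2 fold change of the 36 tested transporter genes, Aire-/- over Aire+/+ libraries, with the standard error as bars, grouped by role along the vertical axis. Points are coloured by lower (8), higher (5) or not called (23). A triangle marks the upper limit for Slc6a12, which had 0 UMIs in Aire-/- libraries.

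The 17 genes below the count filter were scarce in both genotypes, with 8 to 50 UMIs summed over the Aire+/+ libraries and at most 12 over the Aire-/- libraries. Of these 17, 8 had 0 UMIs in every Aire-/- library, and Slc6a12 made 9 of the 53 (17%, against 5.48% of the table). No member was at 0 in every Aire+/+ library. Against a floor of 3 UMIs over the group, Slc38a5 was at least 6.91-fold lower, Slc6a15 at least 5.26-fold, Slc38a8 at least 4.44-fold and Slc6a11 at least 2.47-fold. For Slc1a6 and Slc6a21, both also at 0 in 1 Aire+/+ library, the bound was 1.32-fold. With the count minimum lowered to 3, 14 of the 17 could be tested and 6 were lower, beside 2113 of all 14854 genes tested. Among the 6 were Slc6a3, Slc38a5, Slc38a8, Slc6a11 and Slc6a15 with edgeR adjusted p of 0.00136, 0.00505, 0.00781, 0.0245 and 0.00688. All 6 had 0 UMIs in every Aire-/- library. They passed the filter through the Aire+/+ libraries alone, so only a lower call was possible for them. None of the 14 was higher, and the other 8 had edgeR adjusted p of 0.218 or more.

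**Figure D3:**
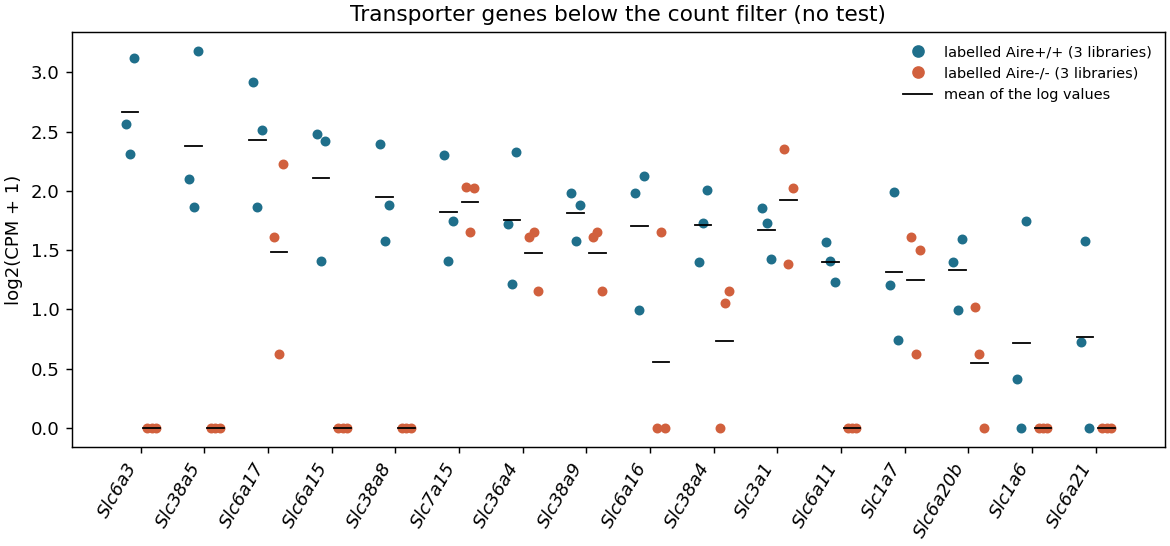
Levels of 16 transporter genes below the count filter in each library, as log2(CPM + 1) on the vertical axis, with each point a library and each line the mean of 3. The points of 7 genes lie at 0 in all Aire-/- libraries, and 10 of the 16 genes overlapped between genotypes.

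The number of transporter genes with at least 1 UMI was compared at equal depth, after thinning each library to 1014581 UMIs. Libraries 745, 750 and 753 then detected 51.8, 50.3 and 50.8 of the 53 genes and libraries 746, 748 and 749 detected 41.0, 41.6 and 41.5 (means of 20 draws). The means of 50.95 ± 0.77 and 41.37 ± 0.32 (SD, n = 3) differed by 9.58 genes (exact two-sided permutation p = 0.1, the smallest that 3 libraries against 3 can give). As shares, 96.1% and 78.1% of the transporter genes were detected in the Aire+/+ and Aire-/- libraries, beside 97.3% and 87.0% of all genes in the table. A gene is in the table only if it reached 6 UMIs in some library, which the deeper Aire+/+ libraries reach more easily. Thinning does not undo that selection, so this difference, like the number of genes at 0 in the Aire-/- libraries, is a description of the genes in the table. The summed level of the 53 genes was 1641, 1761 and 1719 CPM in Aire+/+ libraries and 2007, 1946 and 2201 CPM in Aire-/- libraries. Without Slc6a7 and Slc3a2 it was 1126, 1202 and 1172 against 1211, 1103 and 1178 CPM, and the groups overlapped.

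Genes that work beside these transporters were read from the same fit. In a list of 23 genes for transmitter synthesis, vesicle loading and breakdown, 16 were tested, 6 fell, 2 rose and 8 were not called, with a median log2 fold change of -0.46. Over all tested genes 12.1% fell and 8.59% rose, which is the background for this and the following lists. With DESeq2, library totals, thinning or any 1 library left out, 1 gene of the list was higher. The 6 were Th, Dbh and Pnmt, which make catecholamines, Tph1, which starts serotonin synthesis, and the vesicular monoamine transporters Slc18a1 and Slc18a2. Of these, Th, Slc18a2, Dbh and Tph1 passed the count filter through the Aire+/+ libraries alone, so only a lower call was possible for them. Th had 57, 46 and 45 UMIs in Aire+/+ libraries and 1, 0 and 0 in Aire-/- libraries. Slc18a2 was close behind, with 32, 25 and 26 against 1, 0 and 0 UMIs, and Pnmt had 107, 78 and 90 against 2, 6 and 9 UMIs. The edgeR adjusted p was 3.5e-05 for Th, 0.000265 for Slc18a2 and 2.6e-05 for Pnmt. Hdc, which makes histamine, rose from 668 ± 38.8 to 1152 ± 21.8 CPM (SD, n = 3, edgeR adjusted p = 0.000537), and Ddc, the decarboxylase shared by dopamine and serotonin synthesis, rose from 6.63 ± 1.47 to 12.6 ± 1.39 CPM (SD, n = 3, edgeR adjusted p = 0.0487). The adjusted p in the authors' deposited table was 6.31e-08 for Hdc and 0.144 for Ddc. Of 3 tested neuroendocrine markers Chga and Insm1 rose, and the summed level of that list was 300 to 375 CPM in Aire+/+ libraries and 570 to 630 CPM in Aire-/- libraries. Syp was not called, and Chgb and Foxa2, below the count filter, had 45 and 24 UMIs over the Aire+/+ libraries and 2 each over the Aire-/- libraries. The part of such cells in the monoamine results was not tested.

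The amino acid response list holds Atf4 and genes induced when amino acids are short, and all 19 were tested. Asns (asparagine synthetase, log2 fold change -0.72, edgeR adjusted p = 0.0142) and Nupr1 (-0.58, edgeR adjusted p = 0.0242) fell and Cebpb (0.80, edgeR adjusted p = 0.0148) rose. Atf4, Ddit3 and Trib3 were among the 16 not called. Without library 753 none of the list was called, and without library 745 1 gene was lower and 0 higher. Of 20 genes of amino acid sensing by mTORC1, 18 were tested, none fell, and Lamtor3 (1.01), Lamtor1 (0.65) and Castor1 (0.65) rose on the log2 scale (edgeR adjusted p 0.0101, 0.0205 and 0.0407). Of the mTORC1 list 0 genes were higher after thinning, without library 745 or without libraries 753 and 746 together, and 1 with library totals or without library 750 or 753. The lysosomal scaffold proteins encoded by Lamtor1 and Lamtor3 hold mTORC1 at the lysosome, where Slc38a9 also acts, and Castor1 senses arginine.
Of the aminoacyl tRNA synthetases all 19 in the table were tested and Nars alone was called (log2 fold change -0.63, edgeR adjusted p = 0.0487). No synthetase was called without library 745, 750, 753 or 746, and 8 were lower with library totals. Of the partner and peptide uptake genes 7 were tested and 0 were called by edgeR, 1 of them (Mfsd12, adjusted p = 0.085) with an unadjusted p below 0.05, and DESeq2 called 0 as well. The medians of these 4 lists were -0.11, 0.28, -0.30 and 0.07, beside -0.02 for all tested genes.

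**Figure D4:**
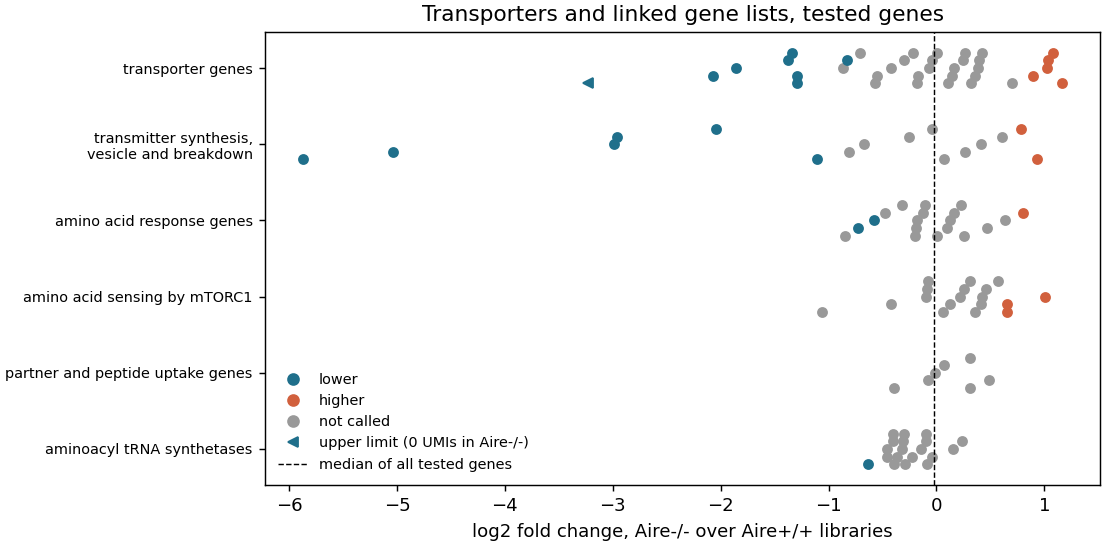
Log2 fold change, Aire-/- over Aire+/+ libraries, of the tested transporters and the tested genes of 5 linked lists, with each point a gene and the dashed line the median of all tested genes. Triangles mark upper limits for genes with 0 UMIs in Aire-/- libraries. Th, Slc18a2, Pnmt and Dbh are the points furthest left in the transmitter list.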

How the data were processed

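MARS-seq libraries of sorted mTEChi, 3 labelled Aire+/+ and 3 labelled Aire-/-, were compared. Per the submitters' processing notes, bcl2fastq, cutadapt, STAR 2.4.2a, HTSeq, DESeq2 and build mm10 were used; not given in the sources used here are their roles, the annotation, strand handling, UMI collapsing and the treatment of multiply matching reads. The authors deposited raw UMI counts for each gene symbol (per the file headers). The deposited normalized counts, a signal equal to the counts times 1 factor per library, were not tested. The log2 fold changes (Aire+/+ over Aire-/-) and adjusted p-values in the authors' deposited table are printed only as theirs.

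Counts were tested with edgeR 4.0.16 (R 4.3.3): TMM scaling, filterByExpr with a minimum count of 10, quasi-likelihood test on genotype, Benjamini-Hochberg over 11956 genes, threshold 0.05. CPM use TMM library sizes. The standard error is the log2 fold change divided by the square root of F. Fitting was tested on simulated data. Alternatives were library totals, count minimum 3 or none, DESeq2 1.42.0, thinning, and leaving out libraries. Every gene of the table reaches 6 UMIs in some library, so scarcer genes are not seen. Sequence copies were sought with blastn 2.17.0 (at least 80 nt at 90% identity) in GENCODE transcripts. Members are named, except 1 that is not reported here; called members get full values, and of the others up to 3 per role group with the highest mean CPM get values by library. The members and lists were chosen with earlier results of these data known.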

Additional observations from a re-analysis of the deposited data

How the results depend on the processing

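None of the 13 called transporters changed direction under any of 13 alternatives. Of the 23 not called, 7 changed sign: with library totals Slc1a5 (-0.19), Slc38a10 (-0.038), Slc6a4 (-0.087) and Slc7a6os (-0.050), after thinning Slc6a4 (-0.12), and without libraries 753 and 746 together Slc1a5 (-0.23) and Slc7a1 (0.090). Over single libraries left out the log2 fold change ran from -0.28 to 0.22 for Slc1a4, -0.21 to 0.16 for Slc1a5, -0.15 to 0.049 for Slc7a1 and -0.36 to 0.18 for Slc6a14. Slc36a1, Slc6a13, Slc6a7, Slc6a8 and Slc7a2 stayed called in all 13, and Slc6a12 in the 12 that tested it; thinning left it below the filter. The cause of the changes below was not tested, apart from those that test other genes or fewer libraries. No paired analysis was possible because library numbers differ between the genotypes.

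Scaling by library totals shifted the median over all tested genes to -0.22, with 567 genes higher, against 1027, beside 2048 lower, against 1450. It gave 3 transporters higher, 19 linked genes lower and 2 higher, with 1 transmitter gene, 0 amino acid response genes and 1 mTORC1 gene higher, 1 mTORC1 gene lower and 8 tRNA synthetases lower. With a count minimum of 3, 14 of 50 transporters and 1 partner gene were lower, beside 2113 of all 14854 genes. With no filter, 14 of 53 transporters and 1 partner gene were lower, beside 2142 of all 15643 genes. The transporters gained as lower in these settings all had 0 UMIs in every Aire-/- library, and Slc7a8 was gained as higher in both. DESeq2 called 5 of 36 transporters lower and 1 transmitter gene higher, beside 1216 lower and 825 higher of all 11956 genes. Thinning to equal depth gave 820 genes lower and 591 higher, 4 transporters lower and 3 higher, 5 linked genes lower and 2 higher, 3 transmitter genes lower and 1 higher, 1 amino acid response gene lower and 0 mTORC1 genes higher. Without libraries 753 and 746 together, 652 genes were higher, 4 transporters lower and 3 higher, 1 linked gene higher, 1 transmitter gene higher, 1 amino acid response gene lower and 0 higher, 0 mTORC1 genes higher and 0 tRNA synthetases lower.

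Leaving out 1 library at a time gave 1098 to 1899 genes lower and 618 to 1156 higher, 4 to 11 transporters lower and 3 to 5 higher, 4 to 10 linked genes lower and 1 to 7 higher, 4 to 6 transmitter genes lower and 1 higher, 0 to 2 amino acid response genes lower and 0 to 2 higher, 0 to 4 mTORC1 genes higher, 0 to 2 tRNA synthetases lower and 0 to 1 partner genes lower. Depth limits the scarce genes: at 1014581 UMIs, library 746 allows up to 3.08 CPM behind a 0.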

Other observations

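The nearest tested genes beside the called transporters were read from the same fit. Beside the 8 genes that fell lay 16 flanking genes, of which 4 fell, 1 rose and 11 were not called, where 12.1% of all tested genes fell and 8.59% rose. Of the 4, 2 are Slc6a12 and Slc6a13, each counted beside the other. The others were far away: A2m lay 269.6 kb from Slc6a12 and Pcdh10 4456.9 kb from Slc7a11. Beside the 5 that rose lay 10, of which 2 rose, 2 fell and 6 were not called. Slc36a1 and Slc36a2 likewise count as each other's flanks. Pdgfrl, 3.9 kb from Slc7a2, fell (log2 fold change -1.38, edgeR adjusted p = 0.0283) while Slc7a2 rose. Pamr1, 15.6 kb from Slc1a2, rose with it (log2 fold change 0.56, edgeR adjusted p = 0.0118).

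With 1 RefSeq promoter per matched gene, the window of 250 bases before the start held a median of 3.5 CpGs (range 2 to 9) in 4 transporter genes that fell and 12 (1 to 14) in 3 that rose. It held 16 (2 to 30) in 17 tested genes that were not called and 8 (0 to 26) in 15 below the count filter. The RefSeq start used lay 47779 bases from the GENCODE gene start for Slc1a2 (1 CpG, rose) and 12229 for Slc6a19 (3 CpGs, fell). For Slc3a2, not called, it lay 9472 bases away. These are descriptions of few promoters, and no test was made.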
